A study of Mus musculus with 6 samples.

Results

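The subunits of the mitochondrial respiratory chain and of the ATP synthase were followed in RNA from sorted mouse haematopoietic stem cells (HSCs). Members were the rows of the deposited expression table whose symbols match the families Nduf (a, b, c, s and v), Sdha to Sdhd, Uqcr, Cyc1, Cycs, Cox4 to Cox8 and Atp5. The rule found 86 of the 23955 symbols in the table. By complex, 35 belonged to complex I, 4 to complex II, 9 to complex III, 1 was cytochrome c, 20 belonged to complex IV and 15 to complex V. Ndufa4 and its relative Ndufa4l2 were placed in complex IV, of which Ndufa4 is known to be a subunit. The symbols Atp5s and Atp5sl match the Atp5 pattern, but their products are not subunits of the ATP synthase, so both are described apart. The 13 subunits that mitochondrial DNA encodes were not analysed here.

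The cells came from the bone marrow of C57BL/6 mice aged 4 months that were either wild-type (WT) or db/db, that is, homozygous for a mutation of the leptin receptor gene that makes the animals obese. WT littermates (Ctrl in the table) served as controls for db/db (LepR_Null in the table), and no other treatment or allele is named for either group. The sort took 20000 cells per library from the lineage-negative Sca-1+ c-Kit+ fraction, keeping those positive for CD150 and negative for CD48. Each of 3 independent experiments gave 1 WT and 1 db/db library, 6 libraries in all, and the labels do not state how many mice a library holds. Values are TPM, transcript abundances corrected for transcript length and scaled to a common total, so levels can be compared between genes.

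In the respiratory chain, complex I takes electrons from NADH and complex II takes them from succinate. Complex III and the small carrier cytochrome c pass them to complex IV, which reduces oxygen, and complexes I, III and IV pump protons. Complex V, the ATP synthase, lets the protons return and makes ATP. HSCs are known to rely largely on glycolysis while quiescent and to raise mitochondrial respiration as they differentiate. Complexes I, III, IV and V are built from subunits of both genomes, whereas all subunits of complex II are encoded in the nucleus.

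The libraries carried the RNA of the sorted population. All 10 listed HSC marker genes, which summed to 1351 to 2327 TPM per library, were above the filter of a mean of 1 TPM. Some markers of other cells were at or near 0, with Cd3e at 0 and Cd79a, Adipoq, Plin1 and Col1a1 at 1.24 TPM or less in every library, and others of the same lists were not. Cd4 was 2.31 to 7.55 TPM in WT and 7.47 to 14.02 TPM in db/db, Fabp4 reached 16.5 TPM, Pecam1 was 16.92 to 34.24 TPM and Pf4 was 191.2 to 561.1 TPM. Genes of granulocytes and monocytes and of erythroid cells were present and uneven, and their values stand beside the results they move with. By the median-of-ratios method, the WT libraries of experiments 1, 2 and 3 had size factors of 0.914, 0.815 and 1.14, and the db/db libraries had 0.915, 1.13 and 1.23. Sequencing depth is unknown, because TPM does not retain it. In these bulk libraries, fewer cells of a type and less RNA per cell cannot be told apart.

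Subunit mRNAs were abundant in HSCs and far from equal. Of all TPM, the 86 symbols together made up 2.26%, 2.49% and 2.2% in WT against 2.28%, 2.11% and 2.07% in db/db. Of the 86, 80 passed the filter, and their means over the 6 libraries ran from 2.55 TPM for Cox4i2 to 2074 TPM for Atp5b, with a median of 175 TPM. The medians of the members were 136 TPM in complex I, 188 TPM in complex II, 136 TPM in complex III, 373 TPM in complex IV and 415 TPM in complex V. The highest member was Ndufa12 in complex I at 407 TPM, Uqcrh in complex III at 504 TPM, Cox7c in complex IV at 1112 TPM and Atp5b in complex V. Cytochrome c (Cycs) was low for the chain it serves, at 37 TPM. The 6 symbols that missed the filter, Cox6a2, Cox7a1, Cox7b2, Cox8b, Cox8c and Ndufa4l2, are described with their isoform partners.

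The comparison of db/db with WT asked which subunits differ in the HSCs of obese mice. No member passed over the whole table (limma, Benjamini-Hochberg adjusted p of 0.666 or more). Over all genes, 4 of 11931 tested passed, or 0.0335%, and these were Hbb-b2, Hbb-bt, Ccl3 and I730030J21Rik, named after their values were seen. At an unadjusted p under 0.05, 10 members were lower in db/db and 1 was higher. The 10 were Ndufb2, Ndufb7 and Ndufb10 of complex I, Uqcr11 and Uqcrq of complex III, Cox4i2 and Cox5b of complex IV, and Atp5e, Atp5g3 and Atp5k of complex V, while the higher one was Atp5sl. That is 12.5% of the 80 tested members lower, where 1.25% of all genes were lower by the same rule, and 1.25% of members higher, where 4.1% of all genes were higher. The count of 10 includes Cox4i2, which passed the filter only through its WT level. Single libraries carried much of the count of 11 in either direction, which became 4 with WT replicate 2 left out, 7 when db/db replicate 2 was left out and 5 when db/db replicate 3 was.

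The groups did not overlap, with all 3 db/db libraries below all 3 WT libraries, for 10 members (2.32% of all genes did so). They were Ndufb2, Ndufb4, Ndufb10, Ndufv1, Uqcr11, Uqcrq, Cox4i2, Cox7a2l, Atp5g3 and Atp5j2. Cox4i2, here and among the members lower in all 3 experiments below, passed the filter only through its WT level. Only Ndufs1 and Atp5sl had all db/db libraries above WT, 2 of 80 members, where 7.85% of all genes did so. Across the experiments, 27 members were lower in db/db in all 3, or 33.8% (7.55% of all genes), and 7 were higher in all 3, or 8.75% (22.7% of all genes). The 7 were Ndufs1, Ndufs4, Sdha, Uqcrfs1, Atp5b, Atp5c1 and Atp5sl.

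The median log2 fold change of the 80 members was -0.07, and that of all tested genes was 0.18, so the members lay -0.25 from the middle of the table. By experiment the median difference of the members was -0.01, -0.25 and -0.14, against 0.00, 0.45 and 0.09 for all genes. In experiment 1 the members therefore sat with the rest of the table, with 42 of 80 lower, where 49.5% of all genes were lower. In experiment 2, 50 of 80 were lower, where 27.6% of all genes were, and in experiment 3, 51 of 80, where 42.2% of all genes were. Scaling by size factors brings the median of all genes from 0.18 to 0.00. The members' median was then -0.27, with 15 members lower at an unadjusted p under 0.05, or 18.8% (2.98% of all genes), and 0 higher (2.49% of all genes). With the experiment as a replicate block on that scale 23 members were lower at an unadjusted p under 0.05, or 28.7% (3.82% of all genes). In that fit 0 were higher (2.9% of all genes), and none passed over the table (smallest limma adjusted p = 0.488). The 15 and the 23 include Cox4i2, which passed the filter only through its WT level.

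**Figure D1:**
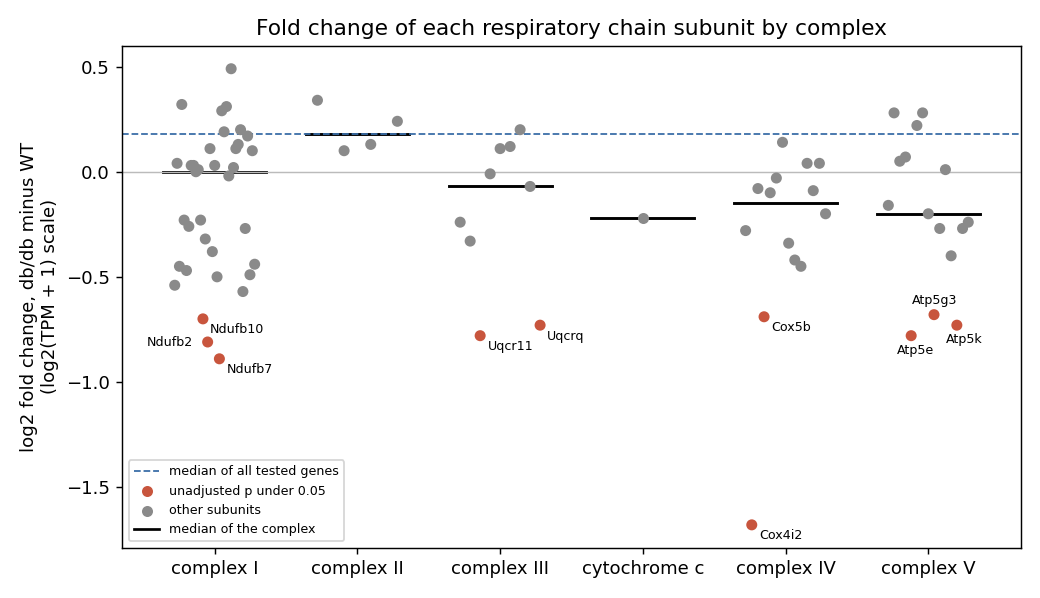
Each point is a subunit that passed the filter, placed by complex (horizontal axis) and by its log2 fold change on the log2(TPM + 1) scale (vertical axis); black lines are medians of a complex and the dashed line is the median of all tested genes, 0.18. Red points had an unadjusted p under 0.05, and all 10 of them lie below 0, from Atp5g3 at -0.68 to Cox4i2 at -1.68, while the points of complex II lie above 0. Cox4i2 passed the filter only through its WT level.

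The medians of the complexes are given as a description. The median log2 fold change was 0.00 over the 35 members of complex I, -0.07 over the 9 of complex III, -0.15 over the 14 tested members of complex IV and -0.20 over the 15 of complex V. After median-of-ratios scaling these became -0.19, -0.27, -0.35 and -0.40. Their order rested on WT replicate 2: with it left out the medians of complexes I, III, IV and V were -0.15, -0.13, -0.14 and -0.05. Complex V was also uneven by experiment, with median differences of 0.06, -0.55 and -0.06 in experiments 1, 2 and 3. For the 4 members of complex II the median was 0.18, equal to that of all genes, and it was -0.01 after median-of-ratios scaling and 0.09 after quantile normalization. Relative to the median of all genes, 29 of 35 members lay below in complex I, 2 of 4 in complex II, 8 of 9 in complex III, 14 of 14 in complex IV and 12 of 15 in complex V. The 14 of complex IV include Cox4i2, which passed the filter only through its WT level.

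Complex I has a core that carries the flavin and the iron-sulphur clusters and a set of accessory subunits around it. The 7 nuclear core subunits had a median log2 fold change of 0.10, or -0.10 after median-of-ratios scaling, and none had an unadjusted p under 0.05. Ndufs1, the largest iron-sulphur subunit of the core, was 24.42, 18.59 and 23.94 TPM in the WT libraries of experiments 1, 2 and 3, against 27.95, 42.25 and 26.33 TPM in db/db. All 3 db/db libraries were above the WT libraries, and the db/db library of experiment 2 stood out. Ndufs1 differed by 0.49 on the log2 scale (SE 0.34, limma adjusted p = 0.92). Ndufv1, which binds NADH and the flavin, went the other way without overlap, from 56.97, 63.12 and 76.54 TPM in WT to 44.34, 56.68 and 38.93 TPM in db/db. Its log2 fold change was -0.49 (SE 0.30, adjusted p = 0.919).

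The 28 accessory subunits of complex I had a median of -0.12, and 11 of them were lower in all 3 experiments (7.55% of all genes). Among the 10 Ndufb subunits, which sit in the membrane arm, the median was -0.35, and 6 were lower in all 3 experiments (7.55% of all genes). Ndufb10 was 118.5, 165.5 and 131.7 TPM in WT and 95.43, 79.68 and 77.91 TPM in db/db, so every db/db library was below every WT library. Its log2 fold change was -0.70 (SE 0.26, unadjusted p = 0.0147, limma adjusted p = 0.808). Ndufb7 was 80.14, 117.9 and 63.78 TPM in WT and 73.85, 30.63 and 40.49 TPM in db/db. The difference was widest in experiment 2, and the db/db library of experiment 1 lay within the WT range. For Ndufb7 the log2 fold change was -0.89 (SE 0.34, adjusted p = 0.808).

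Ndufb2 was 94.91, 88.44 and 51.85 TPM in WT and 44.71, 34.91 and 49.91 TPM in db/db. The groups did not overlap, but the libraries of experiment 3 were nearly level, with a log2 difference of -0.05 against -1.07 and -1.32 in experiments 1 and 2. The highest member of the complex, Ndufa12, an accessory subunit of the peripheral arm, was 414.1, 342.5 and 327 TPM in WT and 361.3, 518.4 and 479.4 TPM in db/db, and its groups overlapped. For Ndufa12 the log2 fold change was 0.32 (SE 0.23, limma adjusted p = 0.92). Of the 12 accessory Ndufa subunits, 6 were below 0, where 31.9% of all genes were, and 6 above. Their median was -0.11, or -0.31 after median-of-ratios scaling, and none had an unadjusted p under 0.05. Ndufs5 was the least stable member, listed at 0 in WT replicate 2 and at 17.89 and 16.87 TPM in the other WT libraries.

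**Figure D2:**
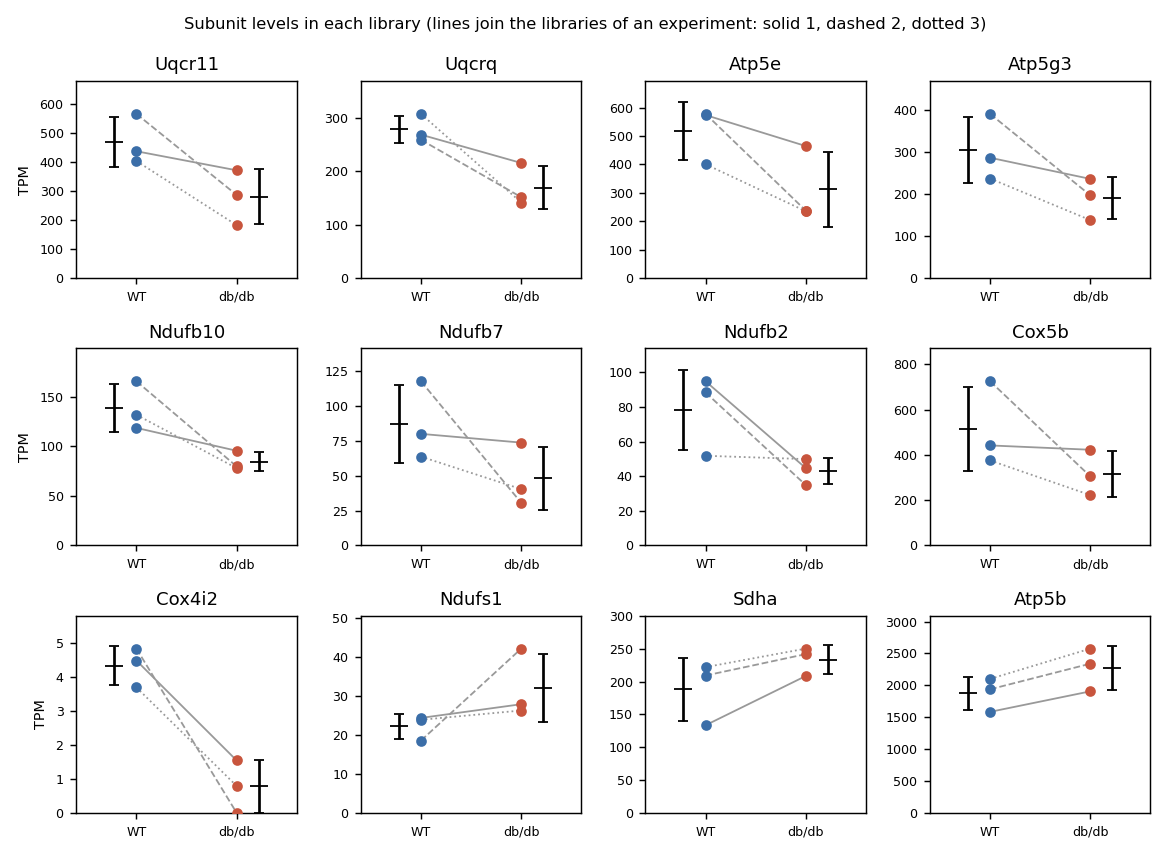
TPM (vertical axes, each from 0) of 12 subunits in the 3 WT and 3 db/db libraries; lines join the libraries of an experiment and the black bars give mean and SD (n = 3). Uqcrq, Ndufb10 and Cox4i2, which passed the filter only through its WT level, lie lower in every db/db library than in any WT library. Sdha and Atp5b are higher in db/db within each experiment but overlap between the groups.

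Complex II, which also works in the citrate cycle as succinate dehydrogenase, had no member with an unadjusted p under 0.05. Sdha, the flavoprotein that oxidises succinate, was 133.4, 209.1 and 221.9 TPM in WT and 208.4, 241.7 and 250.1 TPM in db/db. It was higher in db/db in each experiment, though WT replicates 2 and 3 lay above the lowest db/db library. Sdha differed by 0.34 on the log2 scale (SE 0.26, limma adjusted p = 0.92). The iron-sulphur subunit Sdhb was 66.22, 72.38 and 71.03 TPM in WT and 87.62, 76.87 and 61.82 TPM in db/db. For the membrane anchors, Sdhc was 271 ± 51.3 and 298 ± 70 TPM and Sdhd was 152 ± 47.3 and 176 ± 22.2 TPM (SD, n = 3 each). All 4 fold changes of the complex lay between 0.10 and 0.34, with SEs of 0.25 to 0.28. After median-of-ratios scaling their median was -0.01.

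In complex III, Uqcr11 and Uqcrq had an unadjusted p under 0.05. Uqcr11, a small accessory subunit, was 436.4, 564.9 and 402.8 TPM in WT and 370.8, 286 and 182.1 TPM in db/db. The groups did not overlap, and the difference was small in experiment 1, at -0.23, and larger in experiments 2 and 3, at -0.98 and -1.14. Uqcr11 had a log2 fold change of -0.78 (SE 0.26, unadjusted p = 0.00675, limma adjusted p = 0.666). Uqcrq, another small subunit, was 268, 258.4 and 306.8 TPM in WT and 215.1, 151.2 and 141.2 TPM in db/db, again without overlap. Its log2 fold change was -0.73 (SE 0.25, adjusted p = 0.692), and its unadjusted p was under 0.05 in all 17 alternatives.

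The redox subunits of complex III lay closer to level. Uqcrfs1, the Rieske iron-sulphur protein, was at 79.1 ± 26.1 TPM in WT against 89.4 ± 20.5 TPM in db/db. Cytochrome c1 (Cyc1) was 130 ± 17.2 and 111 ± 21.4 TPM, and the core proteins Uqcrc1 and Uqcrc2 were 113 ± 5.41 and 122 ± 27.3 TPM in WT and 123 ± 22.2 and 133 ± 30.5 TPM in db/db (SD, n = 3 each). The hinge protein Uqcrh was 494.5, 638.5 and 420.6 TPM in WT and 575.1, 422 and 471.6 TPM in db/db, so its order of groups changed between experiments. Cytochrome c was 24.42, 45.43 and 51.91 TPM in WT and 38.54, 34.89 and 26.71 TPM in db/db. It was higher in db/db in experiment 1 and lower in the other two, at -0.22 on the log2 scale (SE 0.34, limma adjusted p = 0.929).

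Every tested member of complex IV had a fold change under the all-gene median, though only Cox4i2 and Cox5b had an unadjusted p under 0.05. Cox5b, a zinc-binding subunit on the matrix side, was 441.6, 724.8 and 375.2 TPM in WT and 422.5, 304.8 and 222.4 TPM in db/db. The db/db library of experiment 1 lay within the WT range, and WT replicate 2 was the highest. The log2 fold change was -0.69 (SE 0.27, limma adjusted p = 0.875), and without WT replicate 2 its unadjusted p was the highest of its alternatives, 0.148. Cox5a, which docks onto Cox4, was 246 ± 22 and 234 ± 26 TPM (SD, n = 3 each). Cox7a2l was 607.1, 786 and 576.6 TPM in WT and 567.4, 393.2 and 487.8 TPM in db/db. Its groups did not overlap, but WT replicate 3 and db/db replicate 1 nearly met (log2 fold change -0.45, SE 0.23, adjusted p = 0.919). Cox7c, the highest member, was 1149 ± 126 and 1075 ± 37.1 TPM (SD, n = 3 each).

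Several complex IV subunits have alternative genes that are used in muscle, lung or testis, and in most sets the HSCs expressed almost only the general gene. Cox4i1, the general isoform, was 976.1, 821.4 and 782.4 TPM in WT and 896.5, 630.8 and 620.7 TPM in db/db. Its alternative Cox4i2, known for its use in lung and under low oxygen, was 4.48, 4.83 and 3.69 TPM in WT and 1.54, 0 and 0.79 TPM in db/db. Every WT library was above every db/db library, at levels where few reads may lie behind a value. Cox4i2 passed the filter only through its WT level. The log2 fold change of Cox4i2 was -1.68 (SE 0.57, unadjusted p = 0.00733, limma adjusted p = 0.692), and it depended on the pseudocount, at -2.13 with 0.5 and -3.07 with 0.1. Its share of the Cox4 pair was 0.457%, 0.585% and 0.469% in WT against 0.171%, 0% and 0.127% in db/db.

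The muscle isoform Cox6a2 was listed at 0 in all 6 libraries, beside 785 ± 109 and 725 ± 17.9 TPM of Cox6a1 (SD, n = 3 each). The muscle isoform Cox7a1 was listed at 0 in WT and at 0.97, 0 and 0.97 TPM in db/db, beside 178 ± 9.17 and 135 ± 35 TPM of Cox7a2. Cox8b was listed at 0 in 5 libraries and at 1.05 TPM in db/db replicate 2, and Cox8c at 0 in all, beside 850 ± 89.8 and 875 ± 112 TPM of Cox8a. Cox7b2 and Ndufa4l2 were listed at 0 in all 6 libraries, beside 171 ± 28.3 and 179 ± 47.2 TPM of Cox7b and 358 ± 118 and 305 ± 63.7 TPM of Ndufa4.

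Cox6b was the exception. Cox6b2, known as the testis isoform of the subunit that links the monomers of complex IV, was 161.4, 88.86 and 90.87 TPM in WT and 240.6, 121.5 and 59.59 TPM in db/db. That was 15.7%, 13.4% and 9.44% of the Cox6b pair in WT and 22.9%, 13.2% and 8.56% in db/db. Both libraries of experiment 1 were the highest of their genotype, and the groups overlapped (log2 fold change 0.14, SE 0.37, limma adjusted p = 0.966). Cox6b1 was 772 ± 170 and 748 ± 96.9 TPM (SD, n = 3 each).

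**Figure D3:**
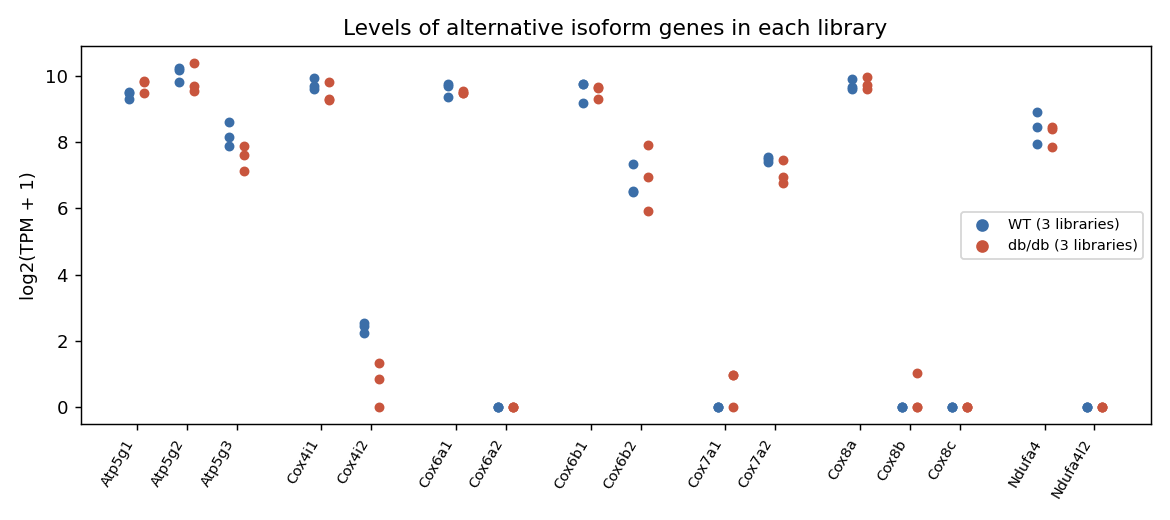
log2(TPM + 1) (vertical axis) of alternative isoform genes in each of the 3 WT (blue) and 3 db/db (red) libraries. One gene of the Cox4, Cox6a, Cox7a and Cox8 sets holds nearly all of the expression, Cox6b2 stands well above 0 beside Cox6b1, and all 3 c-subunit genes are expressed.

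Complex V consists of a catalytic F1 head on a central stalk, a ring of c subunits in the membrane, and a peripheral stalk. Atp5b, the catalytic beta subunit and the highest member of the chain, was 1584, 1938 and 2101 TPM in WT and 1906, 2340 and 2576 TPM in db/db. The differences within experiments were nearly equal, at 0.27, 0.27 and 0.29, and the groups overlapped, both genotypes being lowest in experiment 1 and highest in experiment 3. The log2 fold change was 0.28 (SE 0.21, limma adjusted p = 0.92), and 0.08 was its lowest value over 17 alternatives. The alpha subunit Atp5a1, which alternates with beta in the head, was at 449 ± 120 TPM in WT against 394 ± 12 TPM in db/db (SD, n = 3 each), with log2 differences of 0.06, -0.55 and 0.02 by experiment.

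The epsilon subunit Atp5e, the smallest protein of the central stalk, was 574, 578.1 and 400.8 TPM in WT and 464.9, 237.6 and 235.4 TPM in db/db. The db/db libraries of experiments 2 and 3 lay below all others, and that of experiment 1 lay within the WT range. The log2 fold change was -0.78 (SE 0.27, unadjusted p = 0.00819, limma adjusted p = 0.723). Atp5k, a small subunit of the membrane part, was 147.7, 256.5 and 132.4 TPM in WT and 175.3, 62.18 and 99.7 TPM in db/db. It was higher in db/db in experiment 1 and lower in experiments 2 and 3, and its unadjusted p was under 0.05 in 8 of 17 alternatives. The 7 members of the membrane part and peripheral stalk outside the c ring had a median of -0.27.

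The c ring is made from a peptide that Atp5g1, Atp5g2 and Atp5g3 all encode, each with its own import sequence. Atp5g1 was 717.3, 628 and 738 TPM in WT and 906.1, 919.7 and 709.9 TPM in db/db. Atp5g2 was 1153, 1208 and 903.3 TPM in WT and 1340, 834.6 and 740.4 TPM in db/db. Atp5g3 was 286.4, 390.7 and 236.9 TPM in WT and 236, 196.9 and 138 TPM in db/db. Of the 3 genes, Atp5g3 separated the groups, with a log2 fold change of -0.68 (SE 0.27, unadjusted p = 0.0179, limma adjusted p = 0.855), while Atp5g1 was at 0.28 (SE 0.21) and Atp5g2 at -0.20 (SE 0.24). Atp5g3 held 13.3%, 17.5% and 12.6% of the c-subunit TPM in WT and 9.51%, 10.1% and 8.69% in db/db. The sum of the 3 genes was 2087 ± 184 and 2007 ± 449 TPM (SD, n = 3 each).

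Of the symbols that are not ATP synthase subunits, Atp5sl was 17.35, 8.27 and 14.61 TPM in WT and 23.85, 22.2 and 23.06 TPM in db/db. All db/db libraries were above all WT libraries, with a log2 fold change of 0.80 (SE 0.38, unadjusted p = 0.047, limma adjusted p = 0.919). Atp5s was 13.5 ± 2.44 and 13.1 ± 3.94 TPM (SD, n = 3 each).

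Summed over its members, each complex gives one level per library. Complex III summed to 2144, 2351 and 2092 TPM in WT and 2017, 1749 and 1662 TPM in db/db, so all db/db libraries were below all WT libraries, with a ratio of means of 0.824. Complex IV summed to 6970, 7392 and 6533 TPM in WT and 6829, 5978 and 5719 TPM in db/db, a ratio of 0.887 with overlap. For complex I the sums were 5180 ± 339 and 4886 ± 101 TPM, a ratio of 0.943, and for complex V they were 8064 ± 652 and 7816 ± 393 TPM, a ratio of 0.969 (SD, n = 3 each). Complex II summed to 646, 703 and 697 TPM in WT and 687, 787 and 875 TPM in db/db, a ratio of 1.15, and was higher in db/db in each experiment. After median-of-ratios scaling the log2 ratio of complex II was -0.01, and those of complexes I, III, IV and V were -0.29, -0.47, -0.37 and -0.24. Sums weight the abundant members, and no test was made of them.

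**Figure D4:**
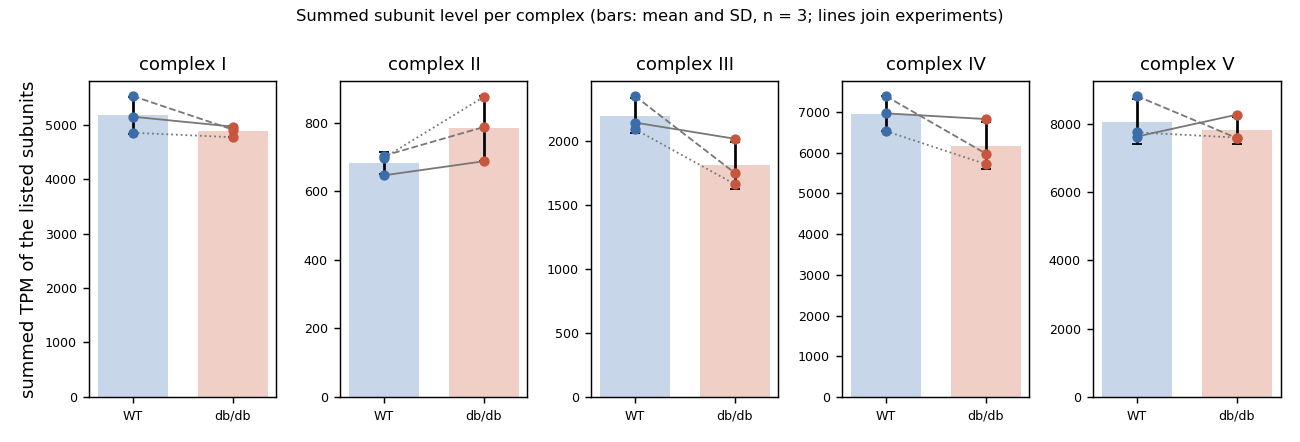
Summed TPM of the listed subunits (vertical axes, from 0) per complex; bars show the mean and SD of 3 libraries, points the libraries, and lines join an experiment. The complex III sum is at most 2017 TPM in the db/db libraries and at least 2092 TPM in the WT libraries, and the complex II sum is higher in db/db within each experiment. In complex III, only Uqcr11 and Uqcrq had groups that did not overlap.

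Fold changes of the members were also set against the length of their coding sequences. Lengths are those of the longest coding transcript in GENCODE M21, which is on a later build than the mm9 used for the values, and all 86 members had one. The median coding length was 430 nucleotides among the tested members and 1362 among all tested genes with one. Over members of up to 300 nucleotides the median log2 fold change was -0.33, with 15 of 18 below 0 (51.3% of all genes of that length), and it was -0.07 above that and up to 600, 0.10 from there up to 900 and 0.03 above 900 nucleotides. Over all tested genes the same classes had medians of -0.03, 0.07, 0.13 and 0.21. All 10 members that were lower at an unadjusted p under 0.05 were of up to 600 nucleotides, as were 58 of the 80 tested members, and over all genes 62 of 136 lower ones were of that length, where 13.5% of the genes were. Across the 80 members, Spearman's rho between fold change and coding length was 0.39, against 0.14 over 11356 genes, given as a description since the genes share the same 6 libraries. In the shortest class the members' median difference was -0.05 in experiment 1, -0.53 in experiment 2 and -0.43 in experiment 3.

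**Figure D5:**
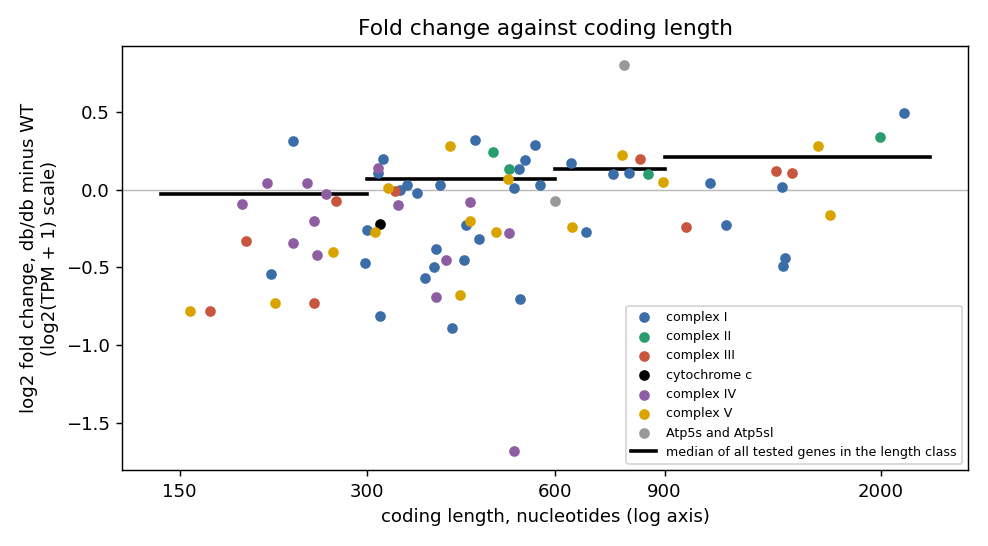
log2 fold change on the log2(TPM + 1) scale (vertical axis) of each tested member against its coding length in nucleotides (horizontal log axis), coloured by complex; black lines are the medians of all tested genes in 4 length classes. Members of up to 300 nucleotides have a median of -0.33, below the -0.03 of all genes of that length.

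Another set of short, abundant mRNAs differed between the libraries in the same way. Of 78 tested cytosolic ribosomal protein genes, 12 were lower and 0 higher at an unadjusted p under 0.05 (1.25% and 4.1% of all genes). Their median log2 fold change was -0.24. Cytosolic ribosomal protein genes made up 28.9%, 32.8% and 25.2% of all TPM in WT against 29.9%, 22.5% and 21.9% in db/db. As with the subunits, the 2 libraries of experiment 1 were close and the db/db libraries of experiments 2 and 3 were lower. Removing each library's trend with transcript length left 13 members lower and 1 higher at an unadjusted p under 0.05, or 16.2% and 1.25% (2.9% and 2.78% of all genes). A trend with coding length was not removed. The measures can differ widely, as for Ndufb2, with 315 coding nucleotides in a transcript of 4371. The members' median was then -0.10 and that of all genes 0.01. From unrounded values the members lay -0.10 from the median of all genes, against -0.25 without the removal. Among the 13 were 9 of the 10 named above, and Atp5k was not among them. The 9 include Cox4i2, which passed the filter only through its WT level.

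Granulocyte and monocyte genes also differed most in experiments 2 and 3. The 12 genes of that list summed to 4782, 551 and 476 TPM in WT and to 4186, 2338 and 1651 TPM in db/db. Of the 12, 8 were higher at an unadjusted p under 0.05 (4.1% of all genes). None of the 12 was at 0 in every library, although WT replicates 2 and 3 had Fcnb at 0. The erythroid list summed to 113, 141 and 71.7 TPM in WT and to 1375, 610 and 286 TPM in db/db, most of it Hbb-b2. Of its 5 tested genes, Hbb-b2 and Klf1 were higher at an unadjusted p under 0.05 (4.1% of all genes). Klf1, an erythroid transcription factor, was 4.04, 5.36 and 0.63 TPM in WT and 9.34, 10.71 and 6.07 TPM in db/db, without overlap. Hba-a1 reached 30.73 TPM and Hbb-b1 reached 56.2 TPM, while Hba-a2 was at 0 in every library and Alas2 and Slc4a1 were at 0.6 TPM or less. Megakaryocyte genes summed to 221 to 496 TPM in WT and 360 to 620 TPM in db/db. Of these, Gp1ba and Itga2b were higher in every db/db library than in any WT library, and Pf4 overlapped. Multipotent progenitor genes, mostly Cd34, summed to 168 to 198 TPM in WT and 191 to 292 TPM in db/db. Within that list Flt3 was 8.62, 6.18 and 12.7 TPM in WT and 18.43, 29.6 and 21.28 TPM in db/db, without overlap. Cd48, which the sort selected against, was 5.35, 4.2 and 1.09 TPM in WT and 9.1, 21.44 and 1.63 TPM in db/db. Cd48 and Cd34 overlapped. The lists for lymphocytes, macrophages, adipocytes, and stroma and endothelium summed to at most 15.5, 4.74, 16.5 and 36.9 TPM in any library. The part of these cells, of the ribosomal protein share and of the size factors in the subunit values was not tested.

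Promoters of Uqcr11, Atp5e and Ndufb7, which were lower at an unadjusted p under 0.05, are shown with that of Atp5b, which was not. The letters searched are those of 3 factors known to act on respiratory chain genes. All of the lower members shown are among the 4 with an ETS match, and no lower member without an ETS match is shown. RefSeq windows on GRCm38.p6, from 250 bases before to 50 after a start, matched 67 of the 86 members by symbol, 64 of them tested. The letters searched on both strands were GCATGCG for NRF1, which overlaps its own reverse complement, CCGGAAG for the ETS family that includes GABP, and AAGATGG for YY1, and no motif shares its letters with another. The windows below run 5′ to 3′ in the direction of the gene, and capitals mark matches.
Uqcr11, chr10:80406772-80407071, minus strand: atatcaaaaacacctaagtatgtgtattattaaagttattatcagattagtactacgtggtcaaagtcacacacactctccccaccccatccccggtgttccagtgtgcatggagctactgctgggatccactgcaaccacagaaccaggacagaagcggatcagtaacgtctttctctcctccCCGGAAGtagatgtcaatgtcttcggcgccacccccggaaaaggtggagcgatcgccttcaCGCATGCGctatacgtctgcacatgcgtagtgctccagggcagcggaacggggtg
Atp5e, chr2:174464052-174464351, minus strand: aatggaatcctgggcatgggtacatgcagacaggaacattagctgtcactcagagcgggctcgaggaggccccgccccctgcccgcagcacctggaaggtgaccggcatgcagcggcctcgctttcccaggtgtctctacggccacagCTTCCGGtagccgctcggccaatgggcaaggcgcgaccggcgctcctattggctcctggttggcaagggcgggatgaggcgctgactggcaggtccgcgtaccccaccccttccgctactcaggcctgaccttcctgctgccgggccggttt
Ndufb7, chr8:83566508-83566807, plus strand: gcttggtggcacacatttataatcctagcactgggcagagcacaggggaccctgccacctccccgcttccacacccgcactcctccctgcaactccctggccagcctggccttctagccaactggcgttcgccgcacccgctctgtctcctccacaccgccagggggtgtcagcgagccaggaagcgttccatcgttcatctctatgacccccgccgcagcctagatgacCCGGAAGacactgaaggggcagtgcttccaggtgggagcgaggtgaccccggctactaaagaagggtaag
Atp5b, chr10:128083057-128083356, plus strand: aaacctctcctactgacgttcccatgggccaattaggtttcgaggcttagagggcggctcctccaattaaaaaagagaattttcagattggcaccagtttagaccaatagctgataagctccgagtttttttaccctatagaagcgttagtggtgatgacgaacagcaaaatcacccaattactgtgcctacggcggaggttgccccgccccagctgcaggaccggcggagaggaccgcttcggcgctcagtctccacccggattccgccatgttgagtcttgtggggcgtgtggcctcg

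Uqcr11 held an NRF1 match that begins 5 bases before the start and an ETS match 66 bases before it. Atp5e held an ETS match 102 bases before the start and Ndufb7 one 20 bases before it, and the Atp5b window held none of the letters searched. The NRF1 letters were in the windows of 12 of 64 members, or 18.8%, against 7.49% of 8997 tested genes with a window and 3.58% of all 32851 windows. ETS letters were in 25% of members, 21% of tested genes and 8.86% of all windows, and YY1 letters in 15.6%, 8.57% and 6.34%. Of the 8 lower members that had a window, 2 held the NRF1 letters, 4 the ETS letters and 0 the YY1 letters. A match describes the letters in the window and does not show binding.

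Genes that serve the chain were taken from lists of assembly factors, regulators and neighbouring enzymes. Of 43 assembly factors tested, 3 were lower and 1 was higher at an unadjusted p under 0.05 (1.25% and 4.1% of all genes). The list median was -0.00, and none passed over the table. Ndufaf2, a complex I assembly factor, was 47.31, 44.07 and 46.08 TPM in WT and 27.24, 20.19 and 26.01 TPM in db/db, and Ndufaf6, another, was 10.92, 13.55 and 20.94 TPM and 6.54, 3.37 and 7.21 TPM. Both were lower in every db/db library than in any WT library (limma adjusted p = 0.754 and 0.743). Cox14, the highest assembly factor, was 215, 158.5 and 191.5 TPM in WT and 157, 131.9 and 124.3 TPM in db/db, which also did not overlap. The other factors with an unadjusted p under 0.05 were Coa4, lower, and Cox15, higher, which makes the haem of complex IV, at log2 fold changes of -0.85 and 0.94.

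The median of 14 transcriptional regulators was 0.43, or 0.24 after median-of-ratios scaling. Among them, 1 was higher at an unadjusted p under 0.05 (4.1% of all genes) and none lower (1.25% of all genes). It was Gabpb1, the partner of the ETS factor Gabpa, at 59.4, 36.3 and 56.67 TPM in WT and 61.99, 90.48 and 87.65 TPM in db/db, without overlap (log2 fold change 0.66, SE 0.30, limma adjusted p = 0.919). Nrf1 was 15.12, 26.19 and 24.58 TPM in WT and 12.36, 22.41 and 19.93 TPM in db/db. Of 16 citrate cycle and pyruvate dehydrogenase genes, 1 was higher and none lower at that threshold (4.1% and 1.25% of all genes). The list median was 0.14, or -0.05 after median-of-ratios scaling. Pdhb, a subunit of pyruvate dehydrogenase, was 93.2, 78.05 and 98.17 TPM in WT and 128.7, 112.2 and 157.9 TPM in db/db (adjusted p = 0.919), and citrate synthase (Cs) was 123, 125.9 and 164.1 TPM and 169.8, 183.7 and 200.3 TPM, both without overlap. The 3 subunits whose symbols fall outside the patterns are Ndufab1, Usmg5 and 2010107E04Rik. They and Atpif1, an inhibitor of the ATP synthase, all had log2 fold changes below 0, from -0.10 to -0.45, where 31.9% of all genes were below 0. None had an unadjusted p under 0.05. Ndufab1 was mixed by experiment, at 0.17, -1.14 and 0.52 in experiments 1, 2 and 3.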

How the data were processed

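RNA from 6 libraries of sorted HSCs was sequenced. The authors deposited TPM per gene symbol, and the submitters' processing notes name RSEM, Bowtie2 and mm9; versions, settings and annotation are not given in the sources used here. Reads shared by near-identical genes and pseudogenes are divided by an estimate in RSEM, so subunits with such copies are uncertain. Every column maps to 1 sample by its title.

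The test was limma (version 3.58.1, R version 4.3.3) on log2(TPM + 1), a scale that understates changes of low genes, across all 11931 genes whose mean reached 1 TPM. It had genotype as its only term, trended empirical Bayes moderation, two-sided p-values and Benjamini-Hochberg adjustment over all genes, with a threshold of 0.05. The p-values measure spread between these libraries, and only in part that of the gene itself, which carried 4 degrees of freedom. A larger weight, worth 17.7 degrees of freedom, came from the moderation, which borrows the spread of genes of similar level. In simulated libraries of this design with 11931 genes, 18% of changes of 1 and 78.4% of changes of 2 in log2 were recovered. Each simulated gene varied independently with its moderated SD, and shifts that genes of a library share were left out. Recovery in the real libraries may therefore differ.

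The experiment number in the labels pairs 1 WT and 1 db/db library. Deviations from the group means, across genes, had correlations of 0.04, 0.01 and 0.16 for libraries of an experiment and of -0.12 to 0.08 otherwise.

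Genes were named by rule: the highest member and the 2 of smallest p in each direction of complexes I, III, IV and V, all of complex II and Cycs, members with an unadjusted p under 0.05, catalytic subunits and isoform sets, and from each list of other genes the highest and the one of smallest p. Other members of a count, and list genes outside the rule (Nrf1, Coa4, Cox15, Ndufaf2, Klf1 and other marker genes), were named after their values were seen. Members and lists were chosen with earlier results of these data known. Marker lists covered HSCs and erythroid, granulocyte and monocyte, multipotent progenitor, lymphocyte, macrophage, megakaryocyte, adipocyte, and stromal and endothelial cells. The alternatives changed the pseudocount (0.1 or 0.5), the filter (none, or 5 TPM on average), the scaling (median of ratios or quantiles), the moderation (no trend) and the pairing (a replicate block, alone and with scaling), or left out each library. Removal of a transcript length trend (natural splines of 4 degrees of freedom, 99.3% of tested genes), the roles within complexes and the length classes were added after the values were seen.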

Additional observations from a re-analysis of the deposited data

How the results depend on the processing

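No named member passed an adjusted p under 0.05 in limma in any of 17 alternatives (smallest 0.298), and the 11 members with an unadjusted p under 0.05 kept their sign in each of theirs. Of the 38 named members tested, 11 changed sign in some alternative. The experiment as a replicate block left the same 11 members under an unadjusted p of 0.05 and 6 genes passing over the table, and changed no call of a named member. The 4 genes that passed over the table became 1 after median-of-ratios scaling, quantile normalization or removal of the length trend, 2 after removal of the length trend with the replicate block, and 0 with no filter (with 535 genes higher and 213 lower by unadjusted p) or with no trend in the moderation (457 and 148), and ran from 0 to 16 with a library left out, the 0 without db/db replicate 2 (333 higher and 122 lower). The 11 members under an unadjusted p of 0.05 became 4 with no trend and 23 with the replicate block and median-of-ratios scaling, and ran from 4 to 15 with a library left out. The cause was not tested.

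After median-of-ratios scaling, with or without the replicate block, the median over all members was -0.27 and those of complexes I, II, III and IV were -0.19, -0.01, -0.27 and -0.35. After quantile normalization complexes I and III were at -0.15 and -0.17, and with the length trend removed complex I was at -0.09, also with the block. With a library left out the medians ran from -0.21 to -0.04 for complex I, from 0.13 to 0.30 for complex II, from -0.21 to -0.03 for complex III, from -0.25 to -0.14 for complex IV, from -0.31 to -0.05 for complex V and from -0.54 to -0.01 for cytochrome c. Summed levels after median-of-ratios scaling had log2 ratios of -0.29, -0.01, -0.47, -0.37 and -0.24 for complexes I to V. Depth is unknown, so the counting error of low members such as Cox4i2 cannot be estimated.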
